A study of Homo sapiens with 6 samples.

Results

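The small noncoding RNA rows of the count table were 39 of its 16199 rows. They were chosen by name. A row was taken if its symbol was that of a 7SL RNA, the RNase MRP RNA, a small nucleolar RNA (snoRNA) or a U6 small nuclear RNA. Symbols of a ribosomal RNA or a microRNA hairpin were taken too. The rule used names only, but it was set with earlier results of these data known. The lowest row total in the table was 132 counts, so no RNA with fewer counts could be taken. They comprised 9 microRNA hairpins, 7 rows of the 7SL family, 12 box C/D snoRNAs, 7 box H/ACA snoRNAs, 2 U6 rows, RMRP and RNA5-8SN1, and all 39 had a RefSeq entry. The data came from 6 libraries of H1 human embryonic stem cells, an established line. The groups were S1344L hemizygous, S1344L homozygous and wild-type Dicer, with 2 libraries each. The mutants were engineered with CRISPR-Cas9, and the labels' protocol writes the hemizygous genotype as pm/fs and the homozygous as pm/pm. All cells, wild-type included, had been expanded for 10 days with dox (doxycycline) withdrawn, and 2 dishes of cells went into each sample. They received 150 mJ/cm2 of ultraviolet light (254 nm) on 2 occasions. RNA was then recovered by iCLIP with an antibody against Ago2, a method that sequences the RNA crosslinked to a protein. The protocol also names a control immunoprecipitation, which was not analysed here. Neither the number of clones behind a genotype nor the origin of its 2 libraries in separate cultures is in the labels, and the spread behind each p-value may therefore be technical.

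Dicer cuts the hairpin precursors of microRNAs into a duplex of about the length of a mature microRNA, and an Argonaute protein such as Ago2 keeps one strand of it as a guide. The other RNAs described here do not depend on that cut for their main work. 7SL RNA is the scaffold of the signal recognition particle, which brings ribosomes that make secreted proteins to the endoplasmic reticulum. Box C/D snoRNAs guide ribose methylation and box H/ACA snoRNAs guide pseudouridylation of ribosomal RNA, and most of them are released from introns of host genes. RMRP is the RNA of RNase MRP, which cuts precursor ribosomal RNA, and U6 is a catalytic RNA of the spliceosome.

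Mature sequences of the hairpins the results turn on are given from RefSeq (GRCh38.p14), 5′ to 3′, with the seed, bases 2 to 8, in capitals. They are shown because a guide's seed sets its targets, and because MIR25 was the only hairpin for which the reference listed both arms. Which arm of a hairpin serves as the guide was not analysed.
hsa-miR-1244: aAGUAGUUgguuuguaugagaugguu
hsa-miR-25-5p: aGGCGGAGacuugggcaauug
hsa-miR-25-3p: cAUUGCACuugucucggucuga
hsa-miR-573: cUGAAGUGauguguaacugaucag
hsa-miR-1270: cUGGAGAUauggaagagcugugu
hsa-miR-135a-2-3p: aUGUAGGGauggaagccaugaa
The 9 hairpins matched 10 mature sequences, 5 on the 5′ arm and 5 on the 3′ arm, with 10 distinct seeds. No 2 rows could therefore be grouped by a shared seed among the sequences listed. The reference may not list every mature arm, as it gave miR-1244 for 3 of the 4 identical MIR1244 hairpins. The seed of miR-25-3p was shared by 5 other human mature microRNAs, hsa-miR-32-5p, hsa-miR-363-3p, hsa-miR-367-3p, hsa-miR-92a-3p and hsa-miR-92b-3p. The seed of miR-573 was shared with hsa-miR-3616-5p, that of miR-1270 with hsa-miR-620 and that of miR-135a-2-3p with hsa-miR-135b-3p.

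Libraries held 39.7 M and 51.6 M counts (hemizygous), 46.2 M and 39.6 M (homozygous) and 52.9 M and 38.2 M (wild-type). At this depth 1 count was worth 0.0190 to 0.0261 CPM (counts scaled by library total, TMM-adjusted). All 12 stem cell markers listed were measured, at a summed 10861 to 12413 CPM in the mutant and 10416 to 10893 CPM in the wild-type libraries. Fibroblast or stromal markers summed to 631 to 826 CPM in the mutant and 790 to 863 CPM in the wild-type libraries (5 of 8 measured). Neuroectoderm markers summed to 409 to 571 CPM in the mutant and 455 to 501 CPM in the wild-type libraries (4 of 6 measured), most of it from NES, and PAX6 and SOX1 had no row. ZIC1, a transcription factor of that list, stood at 41.0 and 58.9 CPM in hemizygous, 28.2 and 28.0 CPM in homozygous and 17.9 and 16.3 CPM in wild-type libraries, with a log2 fold change of 1.54 (SE 0.20) in hemizygous cells, an unadjusted p of 0.000131 and an adjusted p of 0.71 by edgeR. DCX had 0.76 (SE 0.22), and all 4 measured members lay above 0 in hemizygous and 2 of 4 in homozygous cells. The part of these markers in the results below was not tested. Mesendoderm, endoderm and trophoblast markers summed to at most 10.5 CPM per list in any library. DICER1 stood at 118 and 96.4 CPM in hemizygous, 129 and 118 CPM in homozygous and 169 and 126 CPM in wild-type libraries. The log2 fold change of DICER1 was -0.46 (SE 0.19) in hemizygous cells, with an unadjusted p of 0.0456 by edgeR. In homozygous cells it was -0.26 (SE 0.19), and neither was called. Whether these counts follow from the genotype was not tested.

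Small noncoding RNA rows took few of the counts. The 39 rows together held 0.00725% and 0.0179% of the counts in hemizygous, 0.0125% and 0.0137% in homozygous and 0.00640% and 0.0159% in wild-type libraries. The widest 95% exact binomial interval, which covers counting error only, was 0.0155% to 0.0163% (wild-type replicate 2). Of the 39 rows, 36 had a mean under 3 CPM and 19 a mean under 1 CPM, against 21.7% of all rows under 3 CPM. Their median row total was 279 counts over the 6 libraries, against 5127 for all rows, and the lowest row total in the table was 132. RN7SL1 alone held 31.4% and 64.5% of these counts in hemizygous, 57.4% and 51.9% in homozygous and 19.1% and 59.5% in wild-type libraries.

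**Figure D1:**
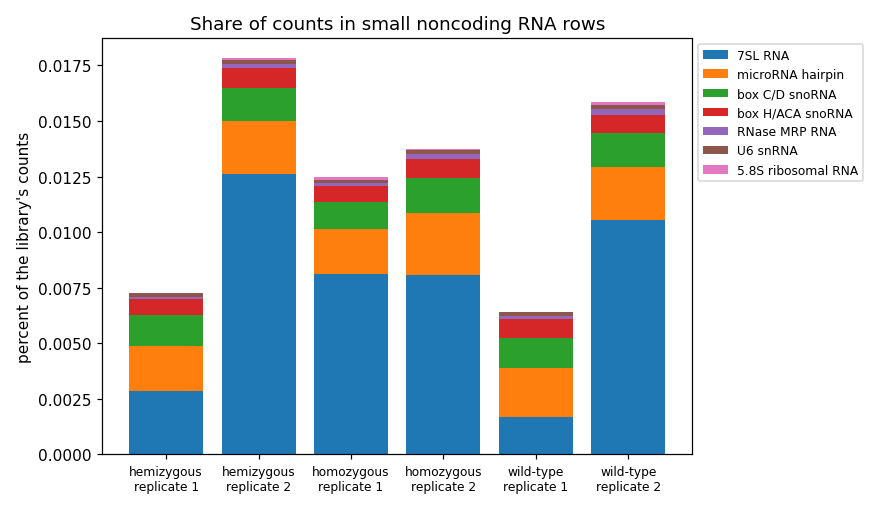
Stacked bars give the percent of each library's counts that fell in each class of small noncoding RNA row, for 2 hemizygous, 2 homozygous and 2 wild-type libraries. The 7SL segment is short in hemizygous replicate 1 and wild-type replicate 1 (0.00283% and 0.00168%), and the microRNA and snoRNA segments are of like height in all 6 libraries.

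**Figure D2:**
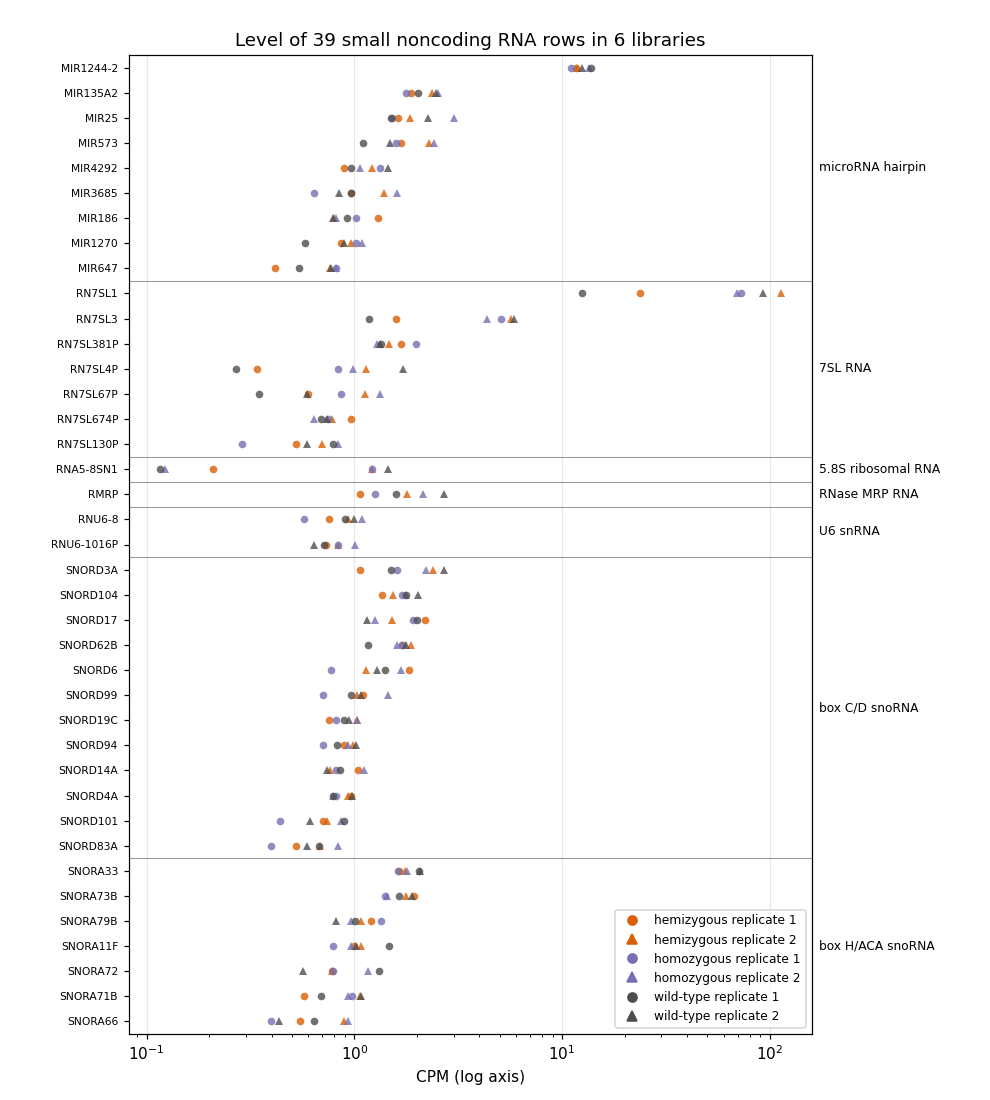
Each row of points is 1 of the 39 rows, grouped by class, and gives its CPM on a log axis in the 6 libraries (colour, genotype; shape, replicate number). Most rows lie near 1 CPM with the genotypes mixed, while RN7SL1, RN7SL3, RN7SL4P and RNA5-8SN1 spread over 4-fold or more between libraries.

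MIR1244-2 was the most abundant hairpin row and held 50.4% to 61.6% of the counts in microRNA rows. It stood at 11.7 and 11.8 CPM in hemizygous, 11.0 and 13.5 CPM in homozygous and 13.8 and 12.5 CPM in wild-type libraries. Both hemizygous libraries lay below both wild-type libraries, and the homozygous libraries overlapped with them. The log2 fold change was -0.16 (SE 0.18, 95% interval -0.58 to 0.26) in hemizygous and -0.10 (SE 0.18, 95% interval -0.52 to 0.32) in homozygous cells by edgeR's quasi-likelihood fit. The hairpin lies at chr5:118974586-118974670 on the plus strand. Its sequence is given with the mature part in capitals, because RefSeq holds 4 hairpins with exactly these 85 bases.
MIR1244-2 hairpin: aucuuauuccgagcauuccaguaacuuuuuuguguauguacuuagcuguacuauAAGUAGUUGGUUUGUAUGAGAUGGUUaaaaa
MIR1244-2 lies inside PTMAP2, a pseudogene of prothymosin alpha, and inside the larger span of DTWD2, which is on the other strand. The identical MIR1244-1 (chr2:231713314-231713398) lies inside PTMA itself, the gene for prothymosin alpha, and MIR1244-3 and MIR1244-4 inside the related pseudogenes PTMAP4 and PTMAP9. PTMA stood at 1649.6 and 1740.5 CPM in hemizygous, 1699 and 1808 CPM in homozygous and 1903 and 1868 CPM in wild-type libraries. For every 1000 counts of PTMA there were 7.08 and 6.79 counts of MIR1244-2 in hemizygous, 6.47 and 7.47 in homozygous and 7.24 and 6.68 in wild-type libraries. The highest and lowest of these 6 ratios were both in homozygous libraries, so the genotypes overlapped. PTMAP2, which surrounds the hairpin, stood at 2.14 and 1.73 CPM in hemizygous, 1.30 and 1.48 CPM in homozygous and 2.58 and 2.17 CPM in wild-type libraries. Per kilobase, the level of MIR1244-2 was 145.7 CPM and that of the whole PTMAP2 span 1.51 CPM. How the authors' counting assigned reads that match several of these copies is not given in the sources used here, so the counts of MIR1244-2 cannot be told apart from those of its copies.

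MIR25, the hairpin of a microRNA that shares its 3′ arm seed with miR-92a, lies at chr7:100093560-100093643 on the minus strand, inside MCM7 on the same strand. It stood at 1.62 and 1.86 CPM in hemizygous, 1.52 and 3.00 CPM in homozygous and 1.50 and 2.25 CPM in wild-type libraries. Homozygous replicate 2 was the highest library and homozygous replicate 1 among the lowest, so the genotypes overlapped. MCM7, a subunit of the replicative helicase, stood at 353 and 356 CPM in hemizygous, 375 and 349.9 CPM in homozygous and 384 and 399 CPM in wild-type libraries and did not share that gap between homozygous libraries. Counts of MCM7 outnumbered those of MIR25 by 192-fold. Per kilobase the hairpin had 23.3 CPM and the MCM7 span 42.6 CPM.

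MIR573 had the widest difference of the hairpins between mutant and wild-type libraries. It lies at chr4:24520192-24520290 and inside no other RefSeq gene. Its level was 1.67 and 2.28 CPM in hemizygous, 1.59 and 2.41 CPM in homozygous and 1.10 and 1.48 CPM in wild-type libraries. All 4 mutant libraries were above both wild-type libraries, on 64 to 120 counts in the mutants and 57 to 58 in the wild-type. The log2 fold change was 0.62 (SE 0.35, 95% interval -0.22 to 1.46) in hemizygous and 0.63 (SE 0.35, 95% interval -0.20 to 1.47) in homozygous cells, with unadjusted p of 0.122 and 0.116 and an adjusted p of 1.00 in both by edgeR. Both mutant comparisons use the same 2 wild-type libraries. With 1 library left out, the hemizygous value was 0.37 without hemizygous replicate 2 and 0.86 without wild-type replicate 2, and the homozygous value was 0.30 without homozygous replicate 2 and 0.90 without homozygous replicate 1.

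MIR1270 lies at chr19:20399272-20399354 inside ZNF826P, a zinc finger pseudogene. It was measured at 0.860 and 0.968 CPM in hemizygous, 1.01 and 1.08 CPM in homozygous and 0.578 and 0.895 CPM in wild-type libraries. Homozygous libraries were both above wild-type, while hemizygous replicate 1 lay below wild-type replicate 2. The log2 fold change in homozygous cells was 0.52 (SE 0.34, 95% interval -0.29 to 1.33), with an unadjusted p of 0.173 by edgeR, beside 0.03 for ZNF826P. It was 0.23 without wild-type replicate 1 and 0.87 without wild-type replicate 2.

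MIR135A2 lies at chr12:97563812-97563911 inside RMST, a long noncoding RNA of neural development, on the same strand. It had 1.88 and 2.35 CPM in hemizygous, 1.76 and 2.54 CPM in homozygous and 2.02 and 2.48 CPM in wild-type libraries. In each genotype replicate 2 was higher than replicate 1, and the genotypes overlapped. Per kilobase it had 21.7 CPM, against 0.353 CPM for the span of RMST. MIR647, inside UCKL1, had 0.417 and 0.759 CPM in hemizygous, 0.815 and 0.812 CPM in homozygous and 0.540 and 0.767 CPM in wild-type libraries. Hemizygous replicate 1 was the lowest, on 16 counts, and the log2 fold change of homozygous over hemizygous cells was 0.45 (SE 0.40, 95% interval -0.52 to 1.41). It was 0.10 without hemizygous replicate 1 and 0.96 without hemizygous replicate 2. The other hairpin rows, MIR186 (inside ZRANB2), MIR3685 and MIR4292 (inside RABL6), lay between 0.639 and 1.60 CPM in all libraries. In none of them did the genotypes separate in both mutants. MIR3685 was the only 1 of the 3 whose hemizygous libraries were both above wild-type, by a margin under 1 count.

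RN7SL1, RN7SL3 and RN7SL4P differed more between replicate libraries of hemizygous and of wild-type cells than between genotype means. RN7SL1, a functional 7SL gene at chr14:49586580-49586878, had the highest mean level of the 39 rows, although MIR1244-2 was above it in wild-type replicate 1. It stood at 23.6 and 113 CPM in hemizygous, 72.8 and 69.3 CPM in homozygous and 12.5 and 92.2 CPM in wild-type libraries. Hemizygous and wild-type replicate 1 were low, hemizygous and wild-type replicate 2 were high, and the homozygous libraries lay between with almost equal levels. The 95% exact Poisson intervals of the libraries, which cover counting error only, were narrow (11.5 to 13.5 CPM in wild-type replicate 1 and 89.2 to 95.2 CPM in wild-type replicate 2). The log2 fold change was 0.39 (SE 0.95, 95% interval -1.88 to 2.66) in hemizygous and 0.44 (SE 0.95, 95% interval -1.83 to 2.72) in homozygous cells. For homozygous over wild-type the log2 ratio was 2.54 between the replicate 1 libraries and -0.41 between the replicate 2 libraries, so its sign depended on the number. For hemizygous over wild-type it was 0.92 between the replicate 1 libraries and 0.29 between the replicate 2 libraries. These counts are of RNA recovered with Ago2 and do not measure RNA per cell. Less RNA per cell, fewer cells with the RNA and less RNA recovered cannot be told apart in such libraries.

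RN7SL3, the other functional 7SL gene measured (chr14:49853616-49853914), had the same low and high libraries. Its level was 1.59 and 5.66 CPM in hemizygous, 5.07 and 4.33 CPM in homozygous and 1.18 and 5.83 CPM in wild-type libraries. RN7SL4P, a 7SL pseudogene inside ANKRD28, did so too, at 0.339 and 1.14 CPM in hemizygous, 0.837 and 0.985 CPM in homozygous and 0.270 and 1.71 CPM in wild-type libraries. RN7SL3 made up 4.78% to 6.51% of the counts of RN7SL3 and RN7SL1 together in the mutant libraries and 8.62% and 5.95% in the wild-type. RN7SL4P made up 1.00% to 1.42% of its sum with RN7SL1 in the mutant libraries and 2.12% and 1.83% in the wild-type. The highest library exceeded the lowest by 9.04-fold for RN7SL1, 4.96-fold for RN7SL3 and 6.35-fold for RN7SL4P. RefSeq lists 687 symbols of 7SL genes and pseudogenes, of which 7 were rows here. Identity between these copies was not computed, and how reads that match several of them were counted is not stated in the sources.

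The remaining 4 rows of the 7SL family, all pseudogenes inside larger genes, did not share those low and high libraries. RN7SL67P lies inside PLEKHA5 (chr12:19303480-19303775). It stood at 0.600 and 1.12 CPM in hemizygous, 0.859 and 1.33 CPM in homozygous and 0.347 and 0.588 CPM in wild-type libraries, on 23 to 59 counts in mutant and 18 and 23 in wild-type libraries. Every mutant library was above both wild-type libraries, hemizygous replicate 1 by little. RN7SL67P had a log2 fold change of 1.24 (SE 0.48, 95% interval 0.10 to 2.38) in homozygous cells, with an unadjusted p of 0.0374 and an adjusted p of 1.00 by edgeR. In hemizygous cells it was 0.91 (SE 0.48, 95% interval -0.24 to 2.05), or 0.38 without hemizygous replicate 2 and 1.33 without wild-type replicate 2. With the same numbers paired it was 1.31 between the replicate 1 libraries and 1.18 between the replicate 2 libraries for homozygous over wild-type. PLEKHA5 had a log2 fold change of -0.02 in homozygous and 0.01 in hemizygous cells.

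RN7SL381P, inside GSE1, stood at 1.67 and 1.46 CPM in hemizygous, 1.98 and 1.28 CPM in homozygous and 1.35 and 1.33 CPM in wild-type libraries. RN7SL674P, inside GREB1, stood at 0.965 and 0.778 CPM in hemizygous, 0.749 and 0.640 CPM in homozygous and 0.694 and 0.742 CPM in wild-type libraries. The highest library exceeded the lowest by 1.55-fold for RN7SL381P and 1.51-fold for RN7SL674P. RN7SL130P, inside PGM1, stood at 0.521 and 0.702 CPM in hemizygous, 0.286 and 0.837 CPM in homozygous and 0.791 and 0.588 CPM in wild-type libraries, with the lowest and the highest library both homozygous.

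RNA5-8SN1, a row for 5.8S ribosomal RNA, the small RNA of the large ribosomal subunit, showed the widest spread. It lies at chr21:8439822-8439978 inside RNA45SN1, the gene of the precursor ribosomal RNA. Its counts were 8 and 64 in hemizygous, 55 and 5 in homozygous and 6 and 57 in wild-type libraries, or 0.209 and 1.21 CPM in hemizygous, 1.21 and 0.123 CPM in homozygous and 0.116 and 1.46 CPM in wild-type libraries. In hemizygous and wild-type cells replicate 2 was the high library, and in homozygous cells replicate 1 was. The 3 low libraries lay at or below 0.209 CPM and the 3 high ones at or above 1.21 CPM. The genotype means were nearly equal, with a log2 fold change of -0.06 (SE 1.31, 95% interval -3.20 to 3.08) in hemizygous and -0.17 (SE 1.32, 95% interval -3.34 to 2.99) in homozygous cells. RefSeq lists 5 symbols of this kind, of which 1 was a row here.

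RMRP (chr9:35657750-35658019) stood at 1.07 and 1.78 CPM in hemizygous, 1.26 and 2.14 CPM in homozygous and 1.58 and 2.71 CPM in wild-type libraries. It was higher in replicate 2 of each genotype. Between libraries of the same number both mutants were lower than wild-type, with a log2 ratio of -0.56 between the replicate 1 libraries and -0.60 between the replicate 2 libraries for hemizygous cells. For homozygous cells it was -0.33 between the replicate 1 libraries and -0.34 between the replicate 2 libraries. The fold change was -0.57 (SE 0.44, 95% interval -1.62 to 0.48) in hemizygous and -0.33 (SE 0.44, 95% interval -1.38 to 0.71) in homozygous cells, with unadjusted p of 0.235 and 0.471 and an adjusted p of 1.00 in both by edgeR. With the replicate number as a block, the unadjusted p was 0.0311 and 0.163 by edgeR, and neither was called. This was not particular to RMRP. With the block, edgeR's unadjusted p was 0.0194 and 0.00316 for RN7SL67P and 0.0292 and 0.0275 for MIR573, and neither row was called. The share of all rows under 0.05 with the block is not given here. Without the block, the hemizygous fold change of RMRP was -0.997 without hemizygous replicate 2 and -0.13 without wild-type replicate 2. The homozygous fold change of RMRP was -0.77 without homozygous replicate 2 and 0.12 without wild-type replicate 2.

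SNORD3A, the U3 snoRNA, which acts in the cutting of precursor ribosomal RNA, was the most abundant box C/D row. It lies at chr17:19188016-19188232 and, alone among the 19 snoRNA rows, inside no other gene. It stood at 1.07 and 2.39 CPM in hemizygous, 1.61 and 2.22 CPM in homozygous and 1.50 and 2.69 CPM in wild-type libraries. As with RMRP, replicate 2 was above replicate 1 in each genotype. The intervals for counting error of replicates 1 and 2 did not overlap in 2 or 3 genotypes for 6 of the 39 rows, RN7SL1, RN7SL3, RN7SL4P, RNA5-8SN1, RMRP and SNORD3A. They overlapped in every genotype for 24 rows. At low counts the intervals are wide, so overlap does not show that replicates were alike. The share over all rows was not computed, so the counts of 6 and 24 do not set these rows apart from the rest of the table. Replicates differed over 2-fold in 5 of 39 rows in hemizygous (6.07% of all rows), 7 in homozygous (2.27%) and 5 in wild-type cells (5.43%).

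**Figure D3:**
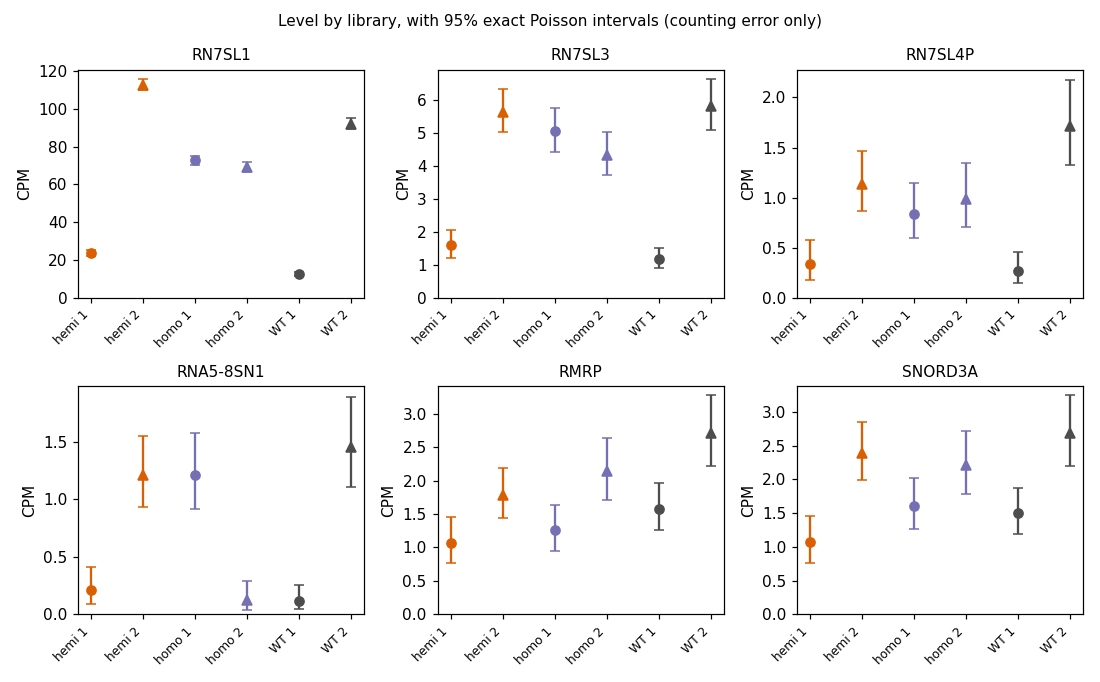
Points give the CPM of 6 rows in each library, from hemizygous to wild-type, and bars the 95% exact Poisson interval, which covers counting error only. RN7SL1, RN7SL3 and RN7SL4P are lowest in replicate 1 of wild-type and hemizygous cells, RNA5-8SN1 is low in homozygous replicate 2 rather than 1, and RMRP and SNORD3A are higher in replicate 2 of each genotype.

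SNORD104 lies inside SNHG25, a small snoRNA host gene. It was measured at 1.36 and 1.54 CPM in hemizygous, 1.70 and 1.77 CPM in homozygous and 1.77 and 2.02 CPM in wild-type libraries. Both mutants were below both wild-type libraries, homozygous replicate 2 by a margin under 1 count. The log2 fold change was -0.39 (SE 0.26, 95% interval -1.02 to 0.25) in hemizygous and -0.13 (SE 0.26) in homozygous cells. SNHG25 itself stood at 1.59 and 1.69 CPM in hemizygous, 1.50 and 2.93 CPM in homozygous and 2.08 and 2.15 CPM in wild-type libraries, with -0.37 in hemizygous and 0.06 in homozygous cells. The host and the snoRNA were of like size in counts, with 1.17 counts of SNHG25 for each of SNORD104.

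SNORD17, inside SNX5, stood at 2.19 and 1.52 CPM in hemizygous, 1.92 and 1.26 CPM in homozygous and 2.01 and 1.15 CPM in wild-type libraries. It was higher in replicate 1 than in replicate 2 of every genotype. SNORD62B, inside PRRC2B, stood at 1.69 and 1.88 CPM in hemizygous, 1.70 and 1.60 CPM in homozygous and 1.16 and 1.77 CPM in wild-type libraries, and its log2 fold change in hemizygous cells was 0.30 (SE 0.31). That value was 0.025 without wild-type replicate 1 and 0.64 without wild-type replicate 2. SNORD4A, inside RPL23A, stood at 0.815 and 0.788 CPM in homozygous, 0.965 and 0.930 CPM in hemizygous and 0.791 and 0.972 CPM in wild-type libraries. The homozygous libraries were both below the hemizygous, with a log2 fold change of -0.24 (SE 0.30). The other 7 box C/D rows, SNORD101, SNORD14A, SNORD19C, SNORD6, SNORD83A, SNORD94 and SNORD99, lay between 0.397 and 1.83 CPM and overlapped between genotypes in all 3 comparisons.

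SNORA33, the most abundant box H/ACA row, inside RPS12, stood at 1.64 and 1.75 CPM in hemizygous, 1.63 and 1.80 CPM in homozygous and 2.04 and 2.07 CPM in wild-type libraries. All 4 mutant libraries were below both wild-type libraries, with a log2 fold change of -0.28 (SE 0.25, 95% interval -0.89 to 0.33) in hemizygous and -0.26 (SE 0.25, 95% interval -0.87 to 0.34) in homozygous cells. RPS12, a ribosomal protein gene with 469 counts for each count of SNORA33, had -0.11 and 0.15. SNORA73B, inside SNHG3 and RCC1, stood at 1.41 and 1.43 CPM in homozygous, 1.93 and 1.76 CPM in hemizygous and 1.64 and 1.89 CPM in wild-type libraries. Homozygous libraries were below all others, with a log2 fold change of -0.31 (SE 0.26, 95% interval -0.95 to 0.32) against wild-type and -0.38 (SE 0.26, 95% interval -1.01 to 0.25) against hemizygous.

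SNORA11F, inside NUDT13, stood at 0.793 and 0.960 CPM in homozygous, 0.991 and 1.08 CPM in hemizygous and 1.47 and 1.02 CPM in wild-type libraries. The homozygous libraries were the lowest and wild-type replicate 1 the highest, with a log2 fold change of -0.51 (SE 0.32, 95% interval -1.29 to 0.26) against wild-type. This was -0.73 without wild-type replicate 2 and -0.22 without wild-type replicate 1. SNORA79B, inside CCNB1IP1, stood at 1.20 and 1.08 CPM in hemizygous, 1.34 and 0.960 CPM in homozygous and 1.00 and 0.819 CPM in wild-type libraries, with a log2 fold change of 0.32 (SE 0.32) in hemizygous cells. SNORA66, SNORA71B and SNORA72 lay between 0.397 and 1.31 CPM. The U6 pseudogene RNU6-1016P, inside SENP6, stood at 0.730 and 0.835 CPM in hemizygous, 0.837 and 1.01 CPM in homozygous and 0.713 and 0.640 CPM in wild-type libraries. Its homozygous libraries were both above wild-type, with a log2 fold change of 0.44 (SE 0.31, 95% interval -0.30 to 1.19). RNU6-8, a U6 gene, stood at 0.756 and 0.930 CPM in hemizygous, 0.573 and 1.08 CPM in homozygous and 0.906 and 0.998 CPM in wild-type libraries, and its genotypes overlapped.

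Tested with the whole table, no small noncoding RNA row was called in hemizygous against wild-type cells. edgeR's quasi-likelihood test called 0 of the 39 rows at an adjusted p under 0.05, and 0% of all rows were called. At an unadjusted p under 0.05 there were 0 of 39 rows, against 0.87% of all rows. DESeq2 and limma-voom called 0 of the 39. The libraries did not overlap in 7 rows that were higher (17.9% of the 39, against 8.13% of all rows) and in 3 that were lower (9.21% of all rows). The 7 were MIR573, MIR3685, RN7SL67P, RN7SL381P, RN7SL674P, RNU6-1016P and SNORA79B, and the 3 were MIR1244-2, SNORA33 and SNORD104. The nearest hemizygous and wild-type libraries were under 1 count apart in MIR3685 (0.9647 against 0.9640 CPM) and RNU6-1016P (0.730 against 0.713 CPM). The same held for RN7SL67P (0.600 against 0.588 CPM). The median log2 fold change was 0.02 over the 39 rows and -0.00 over all rows, and 36 of 39 lay within 0.5 of 0.

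In homozygous against wild-type cells edgeR again called 0 of 39 rows, as 0% of all rows, and DESeq2 and limma-voom called 0. One row, RN7SL67P, had an unadjusted p under 0.05, or 2.56% of the 39, against 2.69% of all rows. The libraries did not overlap in 5 rows that were higher (14.2% of all rows) and 4 that were lower (13.6% of all rows), shares close to those of the whole table. The 5 were MIR573, MIR1270, MIR647, RN7SL67P and RNU6-1016P, and the 4 were SNORA11F, SNORA33, SNORA73B and SNORD104. The median log2 fold change was 0.00 over the 39 rows and -0.00 over all rows. By class the median was 0.27 for the 9 hairpins, 0.29 for the 7SL rows, -0.09 for box C/D and 0.04 for box H/ACA rows. In hemizygous against wild-type cells these medians were -0.09, 0.22, 0.04 and -0.08. The hairpin median thus had the other sign there, with 4 of 9 hairpins above 0, against 6 of 9 in homozygous cells. Class medians were not tested.

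Between the mutants, homozygous against hemizygous, edgeR, DESeq2 and limma-voom called 0 of 39 rows, and edgeR 0% of all rows. There were 0 of 39 at an unadjusted p under 0.05 by edgeR, against 0.765% of all rows. The libraries did not overlap in 5 rows that were higher (11% of all rows) and 4 that were lower (10.4% of all rows). The higher ones were MIR1270, MIR647, RNU6-1016P, SNORA72 and SNORD104, and the lower ones RN7SL674P, SNORA11F, SNORA73B and SNORD4A. The margin was under 1 count in RNU6-1016P (0.8372 against 0.8350 CPM) and SNORA72 (0.793 against 0.782 CPM). All 39 log2 fold changes lay within 0.5 of 0. The 95% intervals were wide for low counts, and for rows such as RN7SL1 (-2.21 to 2.32) they do not bound a difference of 4-fold.

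**Figure D4:**
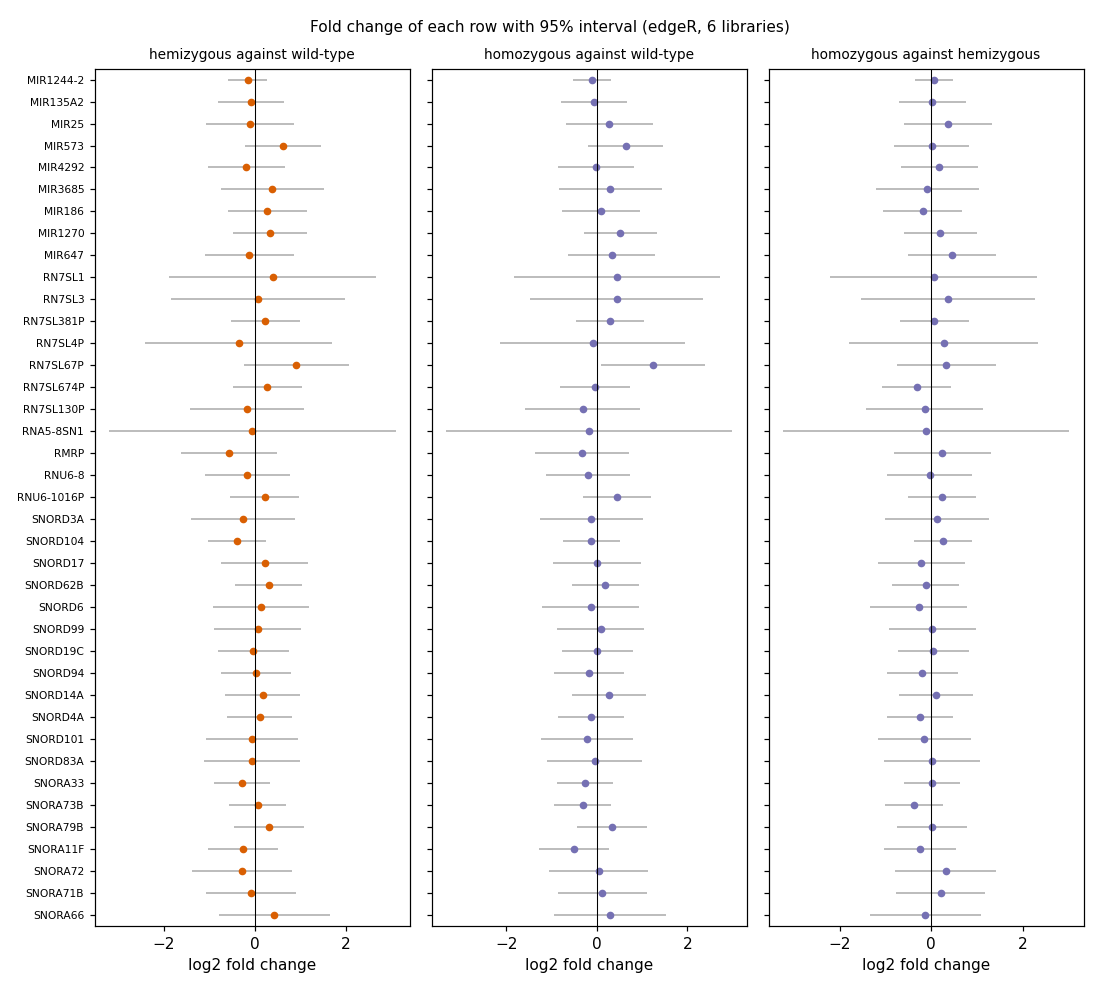
Points give the log2 fold change of each of the 39 rows in 3 comparisons and grey lines its 95% interval from edgeR's fit over 6 libraries. The interval of RN7SL67P in homozygous against wild-type cells (0.10 to 2.38) is the only 1 of the 117 that leaves out 0.

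Most rows lay inside another gene. RefSeq placed 33 of the 39 within the span of a larger gene, and 32 of these had at least 1 such gene among the rows of the table (35 pairs). The larger gene had more counts than the small RNA in every pair but MIR1244-2 and PTMAP2, with a median of 118 and a maximum of 4041 counts (RPL3, around SNORD83A) for each count of the small RNA. Per kilobase, the small RNA row was denser than the whole span of the larger gene in 21 of 35 pairs and within 2-fold of it in 9. The lowest row total in the table was 132 counts, which sets a floor to the density of so short a row. Sparser small RNA rows could not appear, so these counts of pairs do not show that small RNAs are denser in general. The least dense were snoRNA rows inside ribosomal protein genes, with SNORD83A at 0.0176 of the density of RPL3, SNORD101 at 0.0339 of that of RPS12 and SNORA66 at 0.0371 of that of RPL5. RN7SL1 was 17.0 times as dense as RPS29, whose span contains it. The reference tables give no exons, and no strand for rows other than hairpins, so whether a row lay in an exon of the larger gene was not analysed here. Of the 34 larger genes, edgeR called 0 in each comparison.

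**Figure D5:**
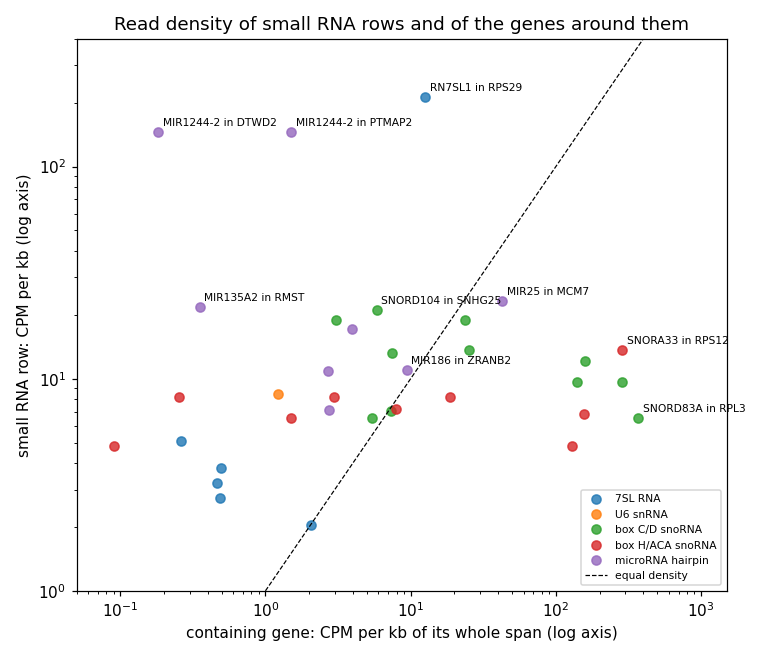
Each point is a pair of a small RNA row and a larger gene that contains it, with the density (CPM per kilobase, mean of 6 libraries, log axes) of the larger gene across its whole span on the x axis and of the small RNA row on the y axis. MIR1244-2 stands farthest above the line of equal density, and snoRNA rows inside ribosomal protein genes far below it.

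Genes for the protein partners of these RNAs were not called either. By edgeR, 0 of 6 genes for signal recognition particle proteins were called in any comparison, with a median log2 fold change of 0.03 in hemizygous and -0.03 in homozygous cells. The same held for 10 measured genes of RNase P and MRP proteins (medians -0.07 and 0.04) and for 6 of box H/ACA proteins (-0.00 and 0.08). Of 5 box C/D protein genes 0 were called (-0.04 and 0.04), and likewise 0 of 13 genes for Sm and snRNP proteins (-0.02 and 0.14). In homozygous cells 12 of those 13 lay above 0, beside 49.3% of all rows. In hemizygous cells 5 of the 13 did, beside 49.1% of all rows. FBL, the methyltransferase of box C/D particles, stood at 3.13 and 1.52 CPM in hemizygous, 1.34 and 1.30 CPM in homozygous and 3.18 and 20.6 CPM in wild-type libraries. Its level in wild-type replicate 2 stood apart from the other 5 libraries. The log2 fold change of FBL in homozygous cells was -3.16 (SE 0.86), with an unadjusted p of 0.00854 and an adjusted p of 1.00 by edgeR, and -1.25 without that library. In hemizygous cells it was -2.36 (SE 0.82), and -0.45 without that library. The 8 measured genes of Cajal bodies and snRNP assembly had medians of -0.04 in hemizygous and -0.08 in homozygous cells, with 0 called. SMN2 of that list stood at 0.860 and 0.437 CPM in hemizygous, 0.220 and 0.0738 CPM in homozygous and 1.33 and 0.947 CPM in wild-type libraries. Its log2 fold change in homozygous cells was -2.91 (SE 0.59) against wild-type, with an unadjusted p of 0.00199 and an adjusted p of 1.00 by edgeR. Against hemizygous it was -2.07 (SE 0.61). The homozygous values of SMN2 rest on few counts, as 1 count was worth 0.0220 and 0.0246 CPM there. SMN1 of the same list had no row, and how reads that match both were counted is not stated in the sources. ZIC1, DCX, FBL and SMN2 were singled out after their values were seen. Proteins of the 7SK particle (7 measured), the hairpin-cutting and export genes (4) and the Argonautes (4) also had 0 called.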

How the data were processed

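RNA bound by Ago2 was measured by iCLIP in 6 libraries, per the labels' protocols. The authors deposited whole-number read counts per gene, not normalized, and the genome build was hg38 per the submitters' processing notes. The sources used here give no aligner, counter, annotation, strand setting or handling of molecular identifiers. Columns were tied to samples by their descriptions, with 0 left unused. Members and lists were chosen with earlier results of these data known.

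The test was edgeR's quasi-likelihood test (edgeR 4.0.16, R 4.3.3) after TMM scaling, with 1 mean for each genotype fitted to the 6 libraries. No row of the 16199 was lost to filterByExpr. P-values were Benjamini-Hochberg adjusted over all rows, with a threshold of 0.05. Standard errors and 95% intervals were derived from F values. Count and share intervals cover counting error only. The pipeline was tested on simulated data. Deviations of same-numbered libraries from their genotype means correlated at 0.476 (hemizygous, homozygous), 0.741 (hemizygous, wild-type) and 0.357 (homozygous, wild-type). With 2 libraries a genotype such correlations cannot establish that the numbers pair the libraries, and the labels do not state a pairing. The main fit used no pairing. Ratios between same-numbered libraries and the replicate block are given as an assumption.

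Rows given in every library were those of classes of up to 5 rows, the 3 most abundant of larger classes, the 4 with the smallest p per direction and comparison, and the 5 widest between replicates. A larger gene around a row was found by RefSeq span (GRCh38.p14), without strand. Alternatives were other scalings and filters, DESeq2 1.42.0, limma-voom (limma 3.58.1), only the groups compared, a replicate block, and each library left out.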

Additional observations from a re-analysis of the deposited data

How the results depend on the processing

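The count of 0 small noncoding RNA rows called held in each of the 3 comparisons under all 15 alternatives, the replicate block and each left-out library included. The lowest adjusted p of any of these rows under an alternative was 0.974 (MIR1244-2, hemizygous against wild-type, without hemizygous replicate 2), 0.329 (RN7SL67P, homozygous against wild-type, replicate block) and 0.557 (RN7SL3, homozygous against hemizygous, without hemizygous replicate 2). Over all rows DESeq2 called 7, 10 and 10 in these comparisons where edgeR called 0. Of 450 alternative values for 30 fold changes, 433 kept direction and side of the threshold. Part of this was fixed in advance. The setting without a filter repeats the main fit, as the filter removed no row. Leaving out a library of the genotype not compared keeps all the compared libraries. With the replicate block, the log2 fold change of RNA5-8SN1 turned to 0.010, 0.30 and 0.29, and with limma-voom to 0.41 in hemizygous against wild-type. Leaving out 1 library turned 8 fold changes, with ranges for hemizygous against wild-type of -1.15 to 2.46 (RN7SL1) and -1.85 to 2.65 (RNA5-8SN1). For homozygous against wild-type they were -0.77 to 0.12 (RMRP), -0.37 to 2.52 (RN7SL1) and -2.61 to 2.53 (RNA5-8SN1). For homozygous against hemizygous they were -0.20 to 0.79 (MIR25), -0.66 to 1.59 (RN7SL1) and -2.54 to 1.68 (RNA5-8SN1). Without a change of sign, values moved over 1.5 times for MIR1244-2 (-0.22 to -0.082) and SNORA79B (0.19 to 0.48) in hemizygous against wild-type. SNORA73B (-0.41 to -0.19) did so in homozygous against wild-type. In homozygous against hemizygous, RNU6-1016P (0.094 to 0.36), RN7SL674P (-0.47 to -0.16) and SNORA11F (-0.39 to -0.11) did so. The same held for the rows whose values are given above with a library left out. A lone library of a genotype was assumed to vary like the others. The causes were not tested.

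Without RN7SL1, the share of counts in all small noncoding RNA rows was 0.00566% in hemizygous, 0.00596% in homozygous and 0.00581% in wild-type libraries, and in 7SL rows it was 0.000829%, 0.000964% and 0.000780%. Without MIR1244-2, the microRNA share was 0.00106% in hemizygous, 0.00116% in homozygous and 0.000983% in wild-type libraries. With only rows outside other genes, an alternative chosen after seeing the data, the share was 0.00108%, 0.00124% and 0.00110% over all classes. For hairpins it was 0.000314%, 0.000315% and 0.000220%, and for 7SL rows 0.000366%, 0.000472% and 0.000356%. Of the 9 hairpins 7 lay inside another gene, so that hairpin share came from MIR573 and MIR3685 alone. Of the 7 rows of the 7SL family 6 did, so that 7SL share came from RN7SL3 alone. All these shares are means of the 2 libraries of a genotype, given without their spread. Leaving out rows in exons of other genes was not run, as the reference tables hold no exons.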
